A study of Homo sapiens with 6 samples.

Results

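The HSPB8-BAG3 chaperone group was examined as 10 genes, HSPB1, CRYAB, HSPB6, HSPB8, BAG3, HSPA8, HSPA1A, HSPA1B, DNAJB1 and HSPH1, out of 28395 genes counted. The members were picked by name through their NCBI gene identifiers, with results of the comparison described here already known, so their own values are given as a description without a test. All 10 were found in the count table, and 8 had enough reads to enter the fit. HSPA1A and HSPA1B did not. The cells were U251, an established human line of brain tumour origin, labelled as glioblastoma astrocytoma. In the NUAK2-CR group the kinase gene NUAK2 had been targeted by CRISPR-Cas9 delivered with lentiviral vectors, and the other group was labelled WT. Each group held 3 libraries of polyadenylated RNA. The methods describe picking clones from single sorted cells, the sample labels name no clone, and the title of a table from the study's gene set analysis of U251 names a single clone. No non-targeting guide is described for the human lines, so a difference between a clone and its parent population and an effect of NUAK2 cannot be told apart here. The labels do not say whether the 3 libraries of a group were separate cultures, the study's statement on independent experiments is a general one, and every p-value below measures only the spread between these libraries.

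Small heat shock proteins, the HSPB family and its alpha-crystallins, bind unfolding proteins without using ATP and keep them from clumping. HSPB8 works with BAG3, a scaffold that also grips the ATPase domain of HSP70 chaperones. Together they pass misfolded clients, such as stretched filamin, to the ubiquitin ligase CHIP and to autophagy receptors, a route called chaperone-assisted selective autophagy. J-domain proteins such as DNAJB1 start the ATP cycle of HSP70, and HSPH1 resets it by nucleotide exchange. Many of these genes are induced by the transcription factor HSF1, which recognizes alternating GAA and TTC blocks called heat shock elements.

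The sequences just before a listed start site of 4 members are shown because they differ in these blocks. RefSeq start sites on GRCh38.p14 were available for 9 of the 10 members, and CRYAB was not among them. The 250 bases before each start were searched for GAANNTTC and TTCNNGAA, which read the same on both strands and can overlap each other. At least 1 of these 8-base patterns was present in 11.6% of all 35116 promoter windows of this length. Among the 17016 windows of tested genes the share was 9.03%. These shares count windows and not genes. A pattern was present in 7 of the 9 members with an entry, for DNAJB1 in 1 of its 3 listed windows, and absent from the windows of BAG3 and HSPH1. Of the other chaperone genes listed further below, 63 had an entry and 17 of these held a pattern. The windows shown are chr12:119178681-119178930 on the plus strand for HSPB8, chr10:119651130-119651379 on the plus strand for BAG3, chr11:123062137-123062386 on the minus strand for HSPA8 and chr13:31162389-31162638 on the minus strand for HSPH1. Capitals mark the patterns, and each sequence runs 5′ to 3′ and ends at the base before the start.
HSPB8: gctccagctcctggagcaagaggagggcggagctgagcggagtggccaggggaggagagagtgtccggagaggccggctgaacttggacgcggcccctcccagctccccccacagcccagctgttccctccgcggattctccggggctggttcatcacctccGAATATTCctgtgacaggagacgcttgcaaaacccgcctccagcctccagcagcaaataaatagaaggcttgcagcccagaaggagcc
BAG3: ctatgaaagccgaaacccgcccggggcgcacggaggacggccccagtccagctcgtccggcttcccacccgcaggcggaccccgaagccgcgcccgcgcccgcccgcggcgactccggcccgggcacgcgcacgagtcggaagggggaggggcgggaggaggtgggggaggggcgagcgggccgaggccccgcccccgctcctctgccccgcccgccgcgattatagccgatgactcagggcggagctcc
HSPA8: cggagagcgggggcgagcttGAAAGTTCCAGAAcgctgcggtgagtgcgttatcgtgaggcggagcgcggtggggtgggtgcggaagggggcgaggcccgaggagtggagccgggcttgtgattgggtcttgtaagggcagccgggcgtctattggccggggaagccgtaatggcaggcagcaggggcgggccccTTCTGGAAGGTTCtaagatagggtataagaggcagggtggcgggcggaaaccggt
HSPH1: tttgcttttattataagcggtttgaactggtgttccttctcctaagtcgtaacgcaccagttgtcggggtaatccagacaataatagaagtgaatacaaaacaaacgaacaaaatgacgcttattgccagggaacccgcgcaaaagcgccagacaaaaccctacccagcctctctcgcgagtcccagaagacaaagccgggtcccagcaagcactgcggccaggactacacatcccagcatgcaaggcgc
The HSPB8 window held 1 copy, starting at position -88 counted from the transcript start. The HSPA8 window held 4, in overlapping pairs starting at -230 and -225 and at -55 and -50. That window lies inside the annotated span of HSPA8, 123057489 to 123062462, so it precedes a listed start within the gene. The lack of a match in the BAG3 and HSPH1 windows says only that these letters were not within this stretch.

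Totals per library were 35310946 to 55574081 counts in the WT group and 29648445 to 33776712 in NUAK2-CR. NUAK2, the targeted gene, went from 1926, 1457 and 1580.1 normalized counts (read counts scaled to a common library size) to 799, 961 and 849, or -0.93 on the log2 scale (SE 0.11), and the median of its 20 neighbours was -0.42. Of 8 astroglial and glioblastoma markers, 7 were tested and 6 of those fell at an edgeR adjusted p under 0.05, beside 28.2% of all genes tested. GFAP was among those that fell, at -2.56, and OLIG2 was at 0 in every library. Summed normalized counts of the 8 markers were 331745 to 367065 in WT and 144893 to 151667 in NUAK2-CR. The 8 muscle markers, chosen because BAG3 and HSPB8 are abundant in muscle, summed to 16.1 to 30.6 in WT and 6.59 to 13.3 in NUAK2-CR, with TNNT2 at 0 in every library. The 3 immune markers summed to 644 to 733 in WT and 201 to 244 in NUAK2-CR, nearly all from CD68, with AIF1 at 0. The 3 endothelial markers summed to 17.2 to 31.2 and 84.4 to 90.2, and the 4 neuronal ones to 2343 to 2566 and 2617 to 2881, nearly all from MAP2. STMN2, a neuronal marker, rose from a mean of 2.05 ± 2.49 (SD, n = 3) to 82.7 ± 15.3 (SD, n = 3) normalized counts (edgeR adjusted p = 5.87e-06). The other neuronal markers were not called at an edgeR adjusted p under 0.05. Their log2 fold changes were -0.68 for RBFOX3, 0.28 for SYP and 0.12 for MAP2. In bulk RNA fewer cells of a type and less RNA per cell cannot be told apart, and the part of these shifts in the chaperone values was not tested.

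HSPB8 (NCBI gene 26353), which encodes the small heat shock protein that partners BAG3, was the member with the lowest fold change. Its gene lies on chromosome 12 from 119178931 to 119194746 of GRCh38 and has 3 exons in its canonical transcript. WT replicates 1, 2 and 3 held 4333, 4459.7 and 4468 normalized counts. NUAK2-CR replicates 1, 2 and 3 held 636, 655 and 659.8. The groups were far apart and each was tight, with a coefficient of variation of 1.7% in WT and 1.9% in NUAK2-CR. The means were 4420.3 ± 75.9 (SD, n = 3) and 650.3 ± 12.5 (SD, n = 3), so NUAK2-CR held 14.7% of the WT level. On the log2 scale, NUAK2-CR over WT stood at -2.76, with a standard error (SE) of 0.07. Of the 14873 genes tested, 1.71% had a lower fold change.

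BAG3 (NCBI gene 9531), the scaffold of the complex, was lower in NUAK2-CR by less than HSPB8 was. The gene lies on chromosome 10 from 119651380 to 119677819 and has 4 exons. The 3 WT libraries held 6677, 6708 and 6549.5 normalized counts of BAG3, and the 3 NUAK2-CR libraries held 3531, 3178 and 3191. All WT libraries were above all NUAK2-CR libraries. The WT mean was 6645 ± 84.1 (SD, n = 3) and the NUAK2-CR mean was 3300.2 ± 200.3 (SD, n = 3), or 49.7% of it. This is -1.01 on the log2 scale (SE 0.07), and 7.35% of all genes tested were lower.

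HSPB1, the most abundant small heat shock protein transcript here, lies on chromosome 7 from 76302673 to 76304292. Normalized counts of HSPB1 reached 23122, 22196 and 23984 in the WT libraries, and 15865, 16505 and 15717 in the edited ones. The groups did not overlap, and the NUAK2-CR mean was 69.4% of the WT mean (log2 fold change -0.53, SE 0.06). A pseudogene, HSPB1P1, contains 6.05% of the stretches of 100 bases in the canonical HSPB1 transcript. Reads came in pairs, and a pair wholly within those stretches cannot be placed on 1 gene. YWHAG, which starts within 50 kb of HSPB1, stood at -0.24.

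CRYAB, which encodes alpha-B crystallin, was the member with the highest fold change. The WT libraries had 151, 148 and 253 normalized counts, and the NUAK2-CR libraries had 400, 452 and 448. WT replicate 3 stood above the other WT libraries but below every NUAK2-CR library. The means were 184 ± 59.7 (SD, n = 3) and 433 ± 29.0 (SD, n = 3), which is 1.25 on the log2 scale (SE 0.19). Without WT replicate 3 it was 1.54, and without WT replicate 2 it was 1.12. On chromosome 11, where CRYAB spans 111908564 to 111923740 on the minus strand, the small heat shock gene HSPB2 and C11orf52 lie within that span on the plus strand. HSPB2 had 0 to 2 counts per library and C11orf52 had 0. The counting at default parameters does not use strand, so reads from any shared exon cannot be told apart. Whether exons of these genes overlap was not examined. DIXDC1, the nearest measured gene on one side, had a log2 fold change of 0.36.

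HSPB6, also called HSP20, was near the lower end of detection. It had 57.1, 90.7 and 57.0 normalized counts in the WT libraries, and 82.5, 88.0 and 59.3 in NUAK2-CR. The groups overlapped, and the log2 fold change of 0.17 was smaller than its standard error of 0.28. The other 6 small heat shock protein genes of the fixed list, CRYAA, HSPB2, HSPB3, HSPB7, HSPB9 and ODF1, were all under the filter on low counts, with at most 12 counts in any library. CRYAA, HSPB3 and ODF1 had 0 counts in every library, which allows up to 3 counts each, a limit for counting error only.

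HSPA8, the constitutive HSP70 of the cytosol that binds BAG3, was the most abundant member. It had 89739, 107181 and 110079 normalized counts in the WT libraries against 71494, 80299 and 75335 in the NUAK2-CR libraries. WT replicate 1 was the lowest of its group and still above the highest NUAK2-CR library. The NUAK2-CR mean was 74.0% of the WT mean, or -0.43 on the log2 scale (SE 0.08). HSPA8 hosts small nucleolar RNA genes inside its span that were counted separately and held at most 37 counts in a library. CLMP, which starts within 50 kb, went the other way, at 1.93.

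DNAJB1, a J-domain co-chaperone of HSP70, was measured at 14638, 14092 and 14491 normalized counts per WT library, and at 8373, 9391 and 9381 in NUAK2-CR. The groups did not overlap, and the NUAK2-CR mean was 62.8% of the WT mean (log2 fold change -0.67, SE 0.07). TECR, which overlaps it on the opposite strand, stood at -0.12 (SE 0.07).

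HSPH1, the HSP110 nucleotide exchange factor, lies on chromosome 13 from 31134973 to 31162388. WT libraries held 17463, 18059.6 and 17877 normalized counts, and NUAK2-CR libraries 6824, 7291 and 7004. The groups were well separated, at 17799.9 ± 306 (SD, n = 3) and 7039.8 ± 236 (SD, n = 3). The NUAK2-CR mean was 39.5% of WT, or -1.34 on the log2 scale (SE 0.06), the lowest value among the members after HSPB8.

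**Figure D1:**
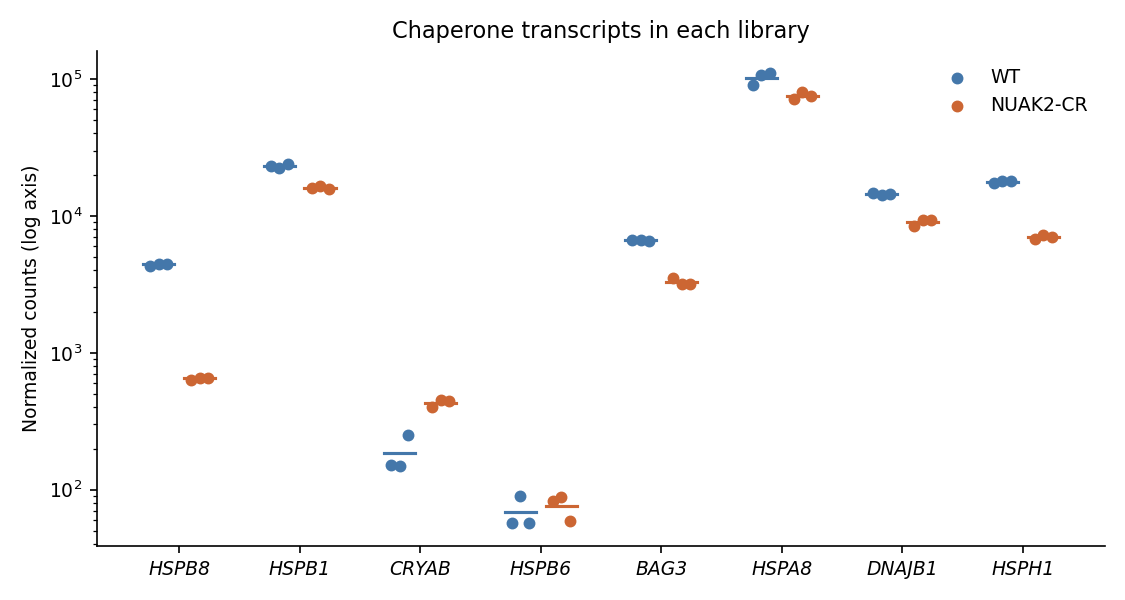
Normalized counts on a log axis for the 8 members that passed the filter, with 1 point per library and a bar at each group mean (blue WT, orange NUAK2-CR, n = 3 each). HSPB8 averages 4420.3 in WT and 650.3 in NUAK2-CR, CRYAB was higher in every NUAK2-CR library, and HSPB6 is the gene whose groups overlap.

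Set side by side, 6 of the 8 measured members were lower in NUAK2-CR at an adjusted p-value under 0.05 from edgeR's quasi-likelihood test, CRYAB was higher, and HSPB6 did not pass. Over all 14873 genes tested the same rule called 54.5%, with 28.2% lower and 26.3% higher. When a log2 fold change beyond 2 in either direction was also asked for, HSPB8 alone was called among the members, against 4.72% of all genes, 2.83% lower and 1.89% higher. Groups did not overlap for 7 of the 8 members and for 61.4% of all genes. The members were chosen on this contrast, so nothing is read from these counts. Their median log2 fold change was -0.60, beside -0.01 for all genes tested.

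HSPA1A and HSPA1B, the stress-inducible HSP70 pair, could not be measured. HSPA1A had 1 count in WT replicate 3 and 0 in the other 5 libraries, and HSPA1B had 0 to 6 counts per library. The genes lie on chromosome 6 at 31815543 to 31817942 and at 31827738 to 31830254, each with a single exon. HSPA1B transcripts contain 72.4% of the stretches of 100 bases in the HSPA1A transcript, and a read pair wholly within such stretches cannot be placed on 1 gene. The surrounding block was nearly empty as well. None of the 62 protein-coding genes that start within 0.5 Mb of HSPA1A reached a mean of 100 normalized counts, against 53.2% of 932 on the rest of chromosome 6. Genes there that are used in most cells were also low, with 13 to 28 counts for CSNK2B, a casein kinase subunit, and 0 in every library for DDX39B, an RNA helicase. This window and these examples were chosen after the values were seen. BAG6, a BAG family gene in the same block, had 9 to 168 counts per library, and its value is uncertain too.

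Levels of different genes were compared per kilobase of canonical transcript in normalized counts. In WT cells BAG3 was at 2595 ± 32.8 (SD, n = 3) per kilobase, a little above HSPB8 at 2375 ± 40.8 (SD, n = 3). HSPB8 transcripts per BAG3 transcript were 0.893, 0.915 and 0.939 in the WT replicates and 0.248, 0.284 and 0.285 in the NUAK2-CR replicates. The ratio of the pair thus went from 0.916 ± 0.0229 (SD, n = 3) to 0.272 ± 0.0209 (SD, n = 3). Across the 10 small heat shock protein genes of human cells considered here, HSPB8 made up 7.34% ± 0.293 (SD, n = 3) of the transcripts per kilobase in WT but 1.62% ± 0.0475 (SD, n = 3) in NUAK2-CR. CRYAB went from 0.728% ± 0.21 (SD, n = 3) to 2.59% ± 0.157 (SD, n = 3) of that pool. Per kilobase, HSPB8 was the second small heat shock protein transcript in WT and CRYAB was the second in NUAK2-CR. This order changed only when counts were divided by canonical transcript length. In normalized counts HSPB8 stayed above CRYAB in each NUAK2-CR library, at 636, 655 and 659.8 against 400, 452 and 448. HSPB1 held 91.8% and 95.5% of the pool. HSPA8 was the highest member per kilobase in both groups, at 45200.0 ± 4859.8 (SD, n = 3) in WT against 33441 ± 1949.8 (SD, n = 3) in NUAK2-CR. In WT the order ran down through HSPB1, DNAJB1, HSPH1, BAG3, HSPB8 and CRYAB to HSPB6, with gaps larger than the SDs. In NUAK2-CR, HSPH1 at 1342 ± 45.0 (SD, n = 3) and BAG3 at 1289 ± 78.2 (SD, n = 3) did not differ beyond their spread, and CRYAB at 559.9 ± 37.5 (SD, n = 3) stood above HSPB8 at 349 ± 6.7 (SD, n = 3). HSPA8 transcripts per HSPB8 transcript went from 19.0 ± 1.74 (SD, n = 3) to 95.7 ± 4.49 (SD, n = 3), and per HSPH1 transcript from 13.3 ± 1.24 (SD, n = 3) to 24.9 ± 0.62 (SD, n = 3).

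**Figure D2:**
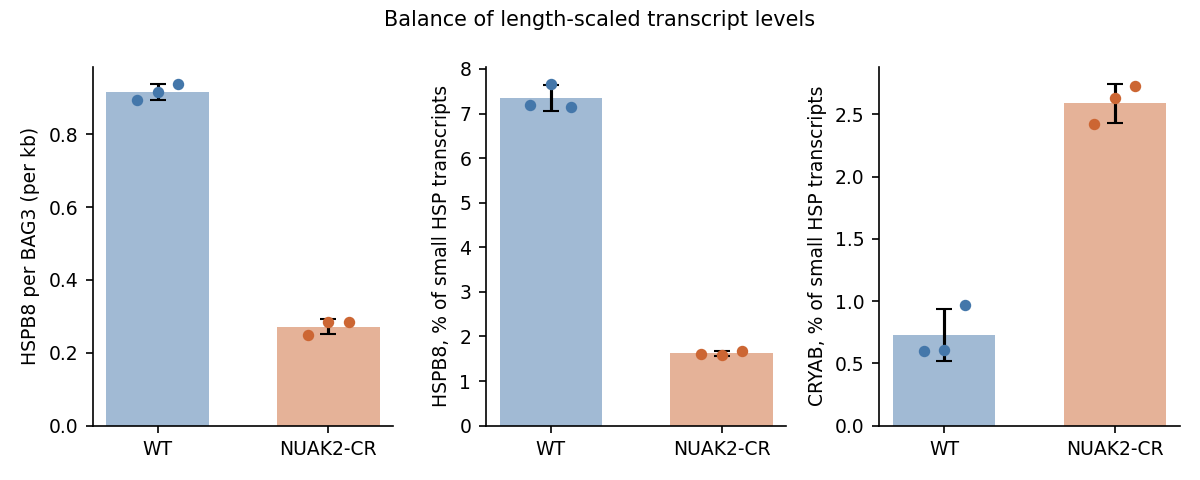
Ratio of HSPB8 to BAG3 transcripts and the shares of HSPB8 and CRYAB among 10 small heat shock protein genes, all from normalized counts per kilobase of canonical transcript. Bars are means, whiskers SD and points the 3 libraries of each group; the ratio is 0.916 in WT and 0.272 in NUAK2-CR.

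Genes around each member were used to see whether a value stood apart from its stretch of chromosome. For each member the log2 fold changes of the 10 nearest tested genes on either side were taken, leaving out other members. Around BAG3 all 20 neighbours had a negative log2 fold change and 18 were called lower, with a median of -0.86. BAG3 itself, at -1.01, lay inside the interquartile range of its neighbours, which ran from -1.04 to -0.68, and 6 of the 20 were lower than BAG3. Less the neighbour median, BAG3 was at -0.15. The nearest genes on either side, TIAL1 and INPP5F, had -0.81 and -0.96. With 20 genes on each side the median was -0.74.

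HSPB8 gave another picture. Its 20 neighbours had a median of -0.07, with 11 of them negative, and less that median HSPB8 stood at -2.70. Of those 20 genes, 1 was lower, BICDL1 at -2.81. HSPH1 lay between, with a neighbour median of -0.52, 17 of 20 negative and 14 called lower. Less that median it was at -0.82, and 1 of its 20 neighbours was lower. The neighbour medians of HSPB1, CRYAB, HSPB6 and DNAJB1 lay between -0.03 and 0.06. HSPA8 had a neighbour median of 0.15 that turned to -0.51 with 5 genes on each side. These neighbours include the small nucleolar RNA genes SNORD14E, SNORD14D and SNORD14C inside HSPA8, at -1.77, -1.43 and -2.16 from at most 37 counts. Without genes inside its span, the median was 0.19 with 10 genes on each side and -0.06 with 5, and 6 of the 20 were lower than HSPA8. The part of such regional shifts in the members' values was not tested.

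**Figure D3:**
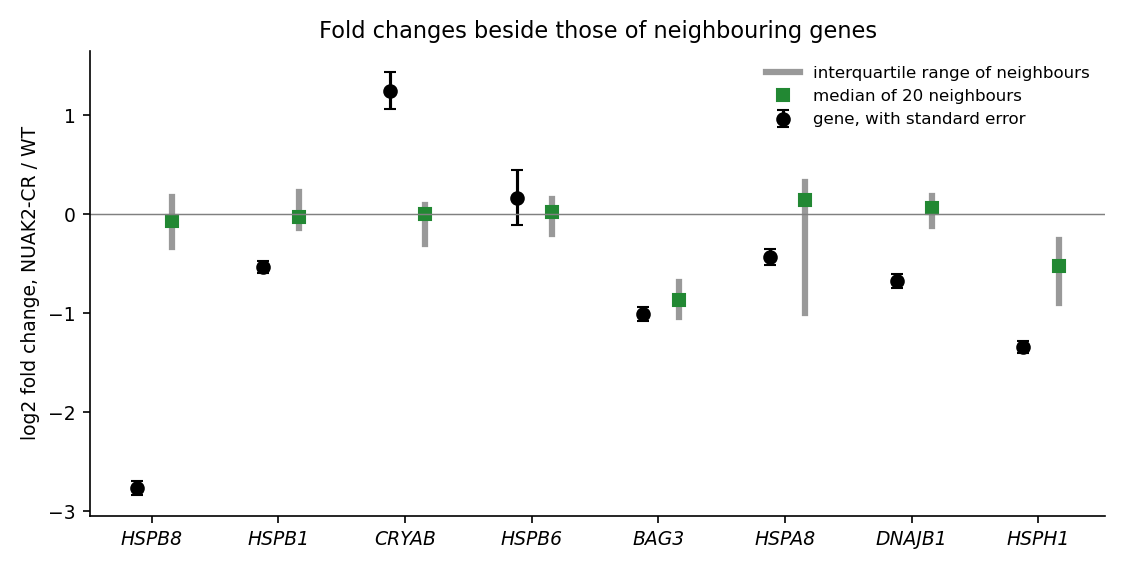
Log2 fold change of NUAK2-CR against WT for each measured member (black, with standard error) beside the median of its 20 neighbouring tested genes (green) and their interquartile range (grey). BAG3 at -1.01 sits within its neighbours, whose median is -0.86, and HSPB8 at -2.76 is far below a median of -0.07.

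**Figure D4:**
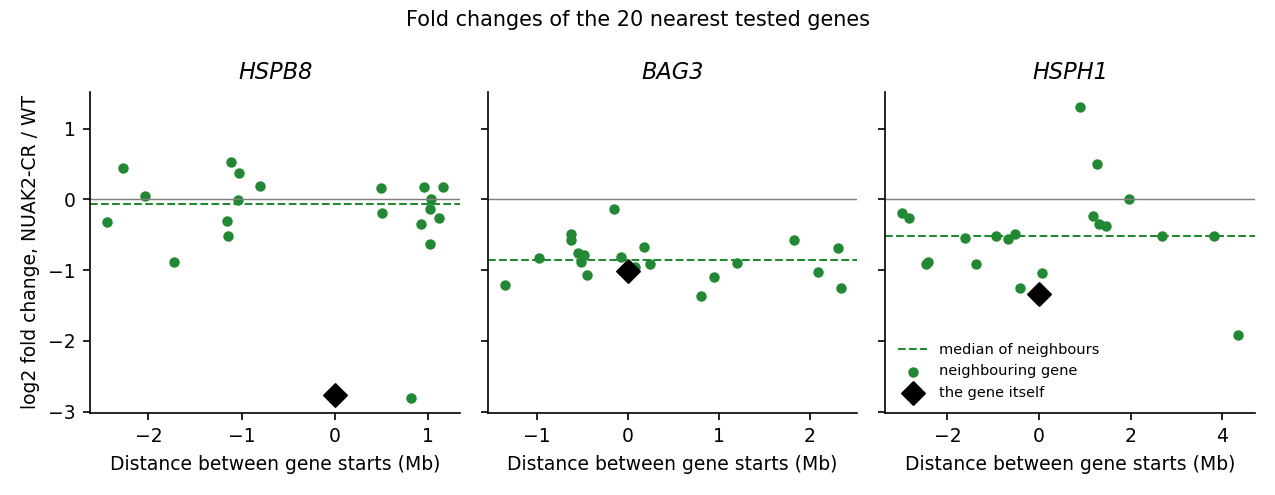
Log2 fold changes of the 20 nearest tested genes around HSPB8, BAG3 and HSPH1 against the distance between gene starts in megabases, with the gene itself as a black diamond and the neighbour median as a dashed line. Every point around BAG3 is below 0.

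Other chaperones were taken from 9 fixed lists of 75 genes, of which 67 were tested. Of the 67, 35 were lower and 9 higher in NUAK2-CR at an adjusted p-value under 0.05, and 23 did not pass, beside 28.2% lower and 26.3% higher over all genes tested. Their median log2 fold change was -0.27, beside -0.01 for all genes. The lists were written with earlier results of these data known, and no list was tested as a set. Counts of single lists below are to be read beside the same shares, 28.2% lower and 26.3% higher.

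Among the other 12 HSP70 and HSP110 genes, 10 were tested, 6 fell and 1 rose, HSPA12A at 0.25, a call that was lost when WT replicate 1 or 3 or NUAK2-CR replicate 2 or 3 was left out. HSPA6, a strictly stress-inducible HSP70, was counted 169, 85 and 113 times in the WT libraries and 4, 11 and 13 times in the NUAK2-CR libraries. It was low in all 6 libraries and lowest in NUAK2-CR, at -3.24 on the log2 scale (SE 0.36, edgeR adjusted p = 9.78e-06). HSPA7, a close relative, holds 27.8% of the stretches of 100 bases in its transcript, so its reads are uncertain, and its 20 neighbours on chromosome 1 had a median of -0.49. HSPA5, the HSP70 of the endoplasmic reticulum, stood at -0.96 (SE 0.09, edgeR adjusted p = 2.15e-06) and is named after its value was seen.

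Of the 11 HSP90 and HSP90 co-chaperone genes, 9 fell, FKBP5 rose at 0.62, and CDC37, the kinase co-chaperone, did not pass. HSP90AA1, the inducible cytosolic HSP90, had 150848, 148880.4 and 146231 normalized counts in WT libraries against 74832, 78657 and 73685 in NUAK2-CR libraries. This is -0.97 on the log2 scale (SE 0.06, edgeR adjusted p = 7.09e-08). HSP90AB1, the constitutive form, stood at -0.32 (SE 0.07, edgeR adjusted p = 0.00115). HSP90AA1 transcripts per HSP90AB1 transcript, per kilobase, were 1.31 ± 0.0474 (SD, n = 3) in WT against 0.837 ± 0.0115 (SD, n = 3) in NUAK2-CR. The more abundant form thus changed only when counts were divided by canonical transcript length. In normalized counts HSP90AB1 was at 69727, 75276 and 69956 in NUAK2-CR, below HSP90AA1 in each library. CACYBP also fell, at -0.81.

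All 8 subunits of the TRiC/CCT chaperonin, which folds actin and tubulin, fell, from -1.03 for CCT3 to -0.27 for CCT8 and CCT2. CCT3 (edgeR adjusted p = 1.25e-07) lies on chromosome 1 among neighbours with a median of -0.40. Of 8 other cytosolic J-domain genes 4 fell and 2 rose. DNAJB4 had a log2 fold change of -0.91 and DNAJC7 -0.73, and DNAJB5 and DNAJB6 rose by 0.37 and 0.35. HSPE1 at -0.36 and HSPD1 at -0.22, which encode the mitochondrial chaperonin pair, fell, although other transcripts hold 31.7% of the stretches of 100 bases of HSPE1, and SERPINH1, the collagen chaperone, did not pass. Neither of the pair was called without NUAK2-CR replicate 1, and 1 of these 3 genes was called lower without WT replicate 1, WT replicate 3 or NUAK2-CR replicate 3.

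Of 4 genes of heat shock factors and their regulation, 2 rose, none fell and 2 did not pass. HSF4 went from 179, 138 and 80.6 normalized counts in the WT libraries to 392, 271 and 272 in the NUAK2-CR libraries, or 1.22 on the log2 scale (SE 0.25, edgeR adjusted p = 0.00134). HSF1, the main heat shock factor, went from 3617, 3109 and 3265 to 4810, 4900.0 and 4821. Its value of 0.54 on the log2 scale (SE 0.07, edgeR adjusted p = 4.31e-05) stood beside a median of 0.64 for its 20 neighbours on chromosome 8, of which 1 was negative. HSF2 at 0.06 and HSBP1 at 0.11, a binder of HSF1, did not pass.

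BAG1 was the only other BAG family gene of 5 to pass, at 0.43 (SE 0.08, edgeR adjusted p = 0.000476), and without WT replicate 1 the list had 2 genes called higher and 1 lower. Per kilobase, BAG3 transcripts per BAG1 transcript were 6.05 ± 0.485 (SD, n = 3) in WT against 2.24 ± 0.254 (SD, n = 3) in NUAK2-CR. BAG1 couples HSP70 to the proteasome, where BAG3 couples it to autophagy.

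Among 18 BAG3 partners and genes of selective autophagy, 6 fell, 2 rose and 10 did not pass, beside 54.5% called and 28.2% called lower over all genes tested. FLNC, the filamin that the BAG3-HSPB8 route is known to turn over in muscle, was counted 429, 174 and 253 times in the WT libraries and 10, 7 and 15 times in the NUAK2-CR libraries. The groups did not overlap. On the log2 scale it stood at -4.25 (SE 0.31, edgeR adjusted p = 2.42e-07), and its 20 neighbours had a median of -0.02. FLNA, which encodes filamin A, stood at 0.16 and did not pass. SYNPO, a BAG3-binding actin protein, fell, at -0.96, as did GABARAPL1 at -0.73, NBR1 at -0.44, HDAC6 at -0.50 and YWHAG at -0.24. The medians of their 20 neighbours were -0.35 for SYNPO, 0.24 for GABARAPL1, -0.37 for NBR1, -0.53 for HDAC6 and 0.07 for YWHAG. All 20 neighbours of HDAC6 were negative, so its value did not stand apart from its stretch of chromosome. MAP1LC3B and OPTN rose, at 0.30 and 0.39. STUB1, which encodes CHIP, had 0.14 and SQSTM1, the p62 autophagy receptor, -0.10, and neither passed.

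**Figure D5:**
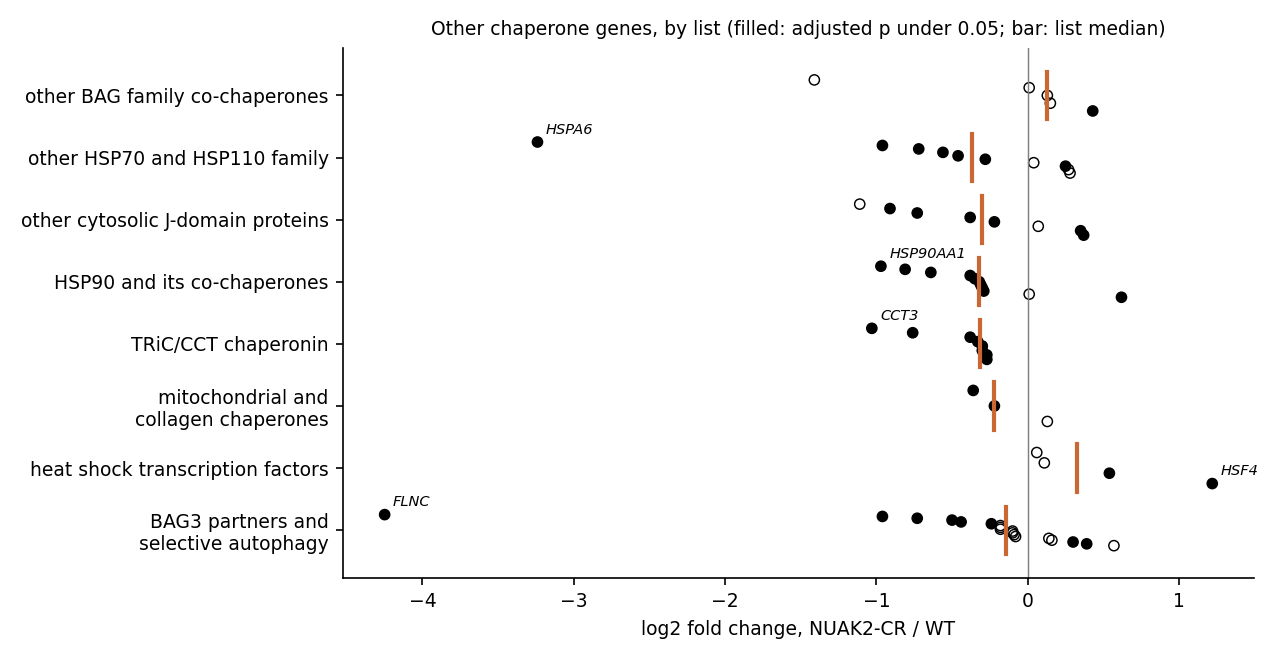
Log2 fold change of NUAK2-CR against WT for the 67 tested genes of the fixed lists, 1 point per gene and 1 line per list, filled where the adjusted p-value is under 0.05, with an orange bar at the list median. All 8 TRiC/CCT genes are below 0, and FLNC at -4.25 and HSPA6 at -3.24 are the lowest points.

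By likeness of their course over the 6 libraries, the genes closest to HSPB8 were RHOU, CD34 and POU3F2. The measure was the root mean square difference of mean-centred log2 normalized counts over 11725 genes with a mean of at least 100, and it was 0.081, 0.10 and 0.10. They had log2 fold changes of -2.73, -2.64 and -2.67. With groups as tight as those of HSPB8, the measure mostly picks genes of like fold change, so this likeness follows from the choice. The genes closest to BAG3 were IRAIN, SSX2IP and SPAG7, at 0.031, 0.032 and 0.035.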

How the data were processed

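The deposited table holds raw read counts per gene from bulk RNA-sequencing of 3 WT and 3 NUAK2-CR libraries of U251. Before deposit, the authors used Trimmomatic for trimming, HISAT2 for alignment against hg38 and featureCounts, at default parameters, for counting. These defaults do not use strand, and the annotation is not given in the sources used here. Of 28395 identifiers, 27745 were matched to a RefSeq symbol on GRCh38.p14. Counts were analysed in R 4.3.3 with edgeR 4.0.16 (filterByExpr, TMM, quasi-likelihood F test, prior count 0.125) with Benjamini-Hochberg adjustment over 14873 genes; a standard error is the log2 fold change over the square root of F. Canonical transcripts and exon numbers came from GENCODE. In a simulation over 14663 genes, edgeR recovered 85 of 100 genes changed 2-fold and 100 of 100 changed 8-fold, with 6 false calls. Only these genes were changed, as many up as down, and counts were drawn with the dispersions that edgeR had fitted. In the data 54.5% of genes were called, so the simulation checks the code and does not give the error rate of this comparison. Alternatives were DESeq2 1.42.0, 2 other filters, 2 other scalings, a replicate block, a prior count of 2, a fold threshold of 1, each library left out in turn, 5 or 20 neighbours, and, chosen after seeing the data, neighbours that do not overlap the member. Members and lists were chosen with earlier results of these data known. List genes were named where called with a log2 change beyond 1 either way, or else as the 1 or 2 called genes of a list that changed most; other list genes, such as HSPA5, HSP90AB1 and HSF1, were named after their values were seen. Python 3.11.15 and matplotlib 3.10.9 drew the figures.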

Additional observations from a re-analysis of the deposited data

How the results depend on the processing

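Under 13 alternatives every measured member kept the direction of its log2 fold change. Each moved by less than the spread between replicates. Leaving out a library can hardly move a value further than that, so nothing is read from the size of these shifts. HSPB8 lay between -2.77 and -2.73, BAG3 between -1.04 and -0.98, HSPH1 between -1.36 and -1.30 and HSPB6 between 0.05 and 0.42. Without a library, CRYAB ranged from 1.12 to 1.54. Of the list genes with a fold change over 1, FLNC lay between -4.51 and -4.03, HSPA6 between -3.49 and -2.90, CCT3 between -1.08 and -0.99 and HSF4 between 0.97 and 1.51. With at least 10 counts in every library, the genes called with an absolute log2 fold change over 2 went from 702 to 339, and those of the HSP70 list and of the BAG3 partner list went from 1 to 0, because FLNC and HSPA6 were removed by that filter. With a fold threshold of 1 the numbers were 2062 over all genes, 4 among the members, 1 for TRiC/CCT and 1 for the heat shock factors. With no filter 1 other BAG family gene was called lower, and with RLE scaling 1 of the mitochondrial and collagen chaperones was. Leaving out 1 library each time, the genes called higher ranged from 1 to 2 in the other BAG family, from 0 to 1 in the HSP70 list and from 0 to 1 among mitochondrial and collagen chaperones; those called lower ranged from 0 to 1 in the BAG family and from 0 to 2 among mitochondrial and collagen chaperones. The neighbour median of HSPA8 turned from 0.15 to -0.51 with 5 genes on each side, and to -0.06 with 5 when genes inside its span were left out, an alternative chosen after seeing the data; the cause was not tested. Same-numbered libraries did not deviate together, with correlations of 0.04, -0.04 and 0.04. The labels do not say whether the numbers pair the samples, and these values cannot settle it. With the replicate block 6 members were called lower and 1 higher, as without it. Too few reads were counted to compare 6 other small heat shock protein genes. HSPA1A and HSPA1B could not be compared either, and 0 of 62 protein-coding genes around HSPA1A reached 100 normalized counts in libraries of 29648445 counts or more.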
